A study of Rattus norvegicus with 26 samples.

Results

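Axon guidance ligands and receptors were followed through subacute spinal cord injury in the rat and through treatment with mesenchymal stem cells from the human umbilical cord (hUC-MSCs). The 68 genes described here are all the genes of the count table with a name in the semaphorin (classes 3 to 7), plexin, neuropilin, ephrin, Eph, Slit, Robo, netrin, Unc5 or Dcc families and at least 10 counts in at least 3 libraries, out of 32883 genes listed and 17838 that met the same count rule. The rule uses no difference between groups. The rats were wild-type adult female Sprague-Dawley animals of postnatal day 70 and 250 g, and the injury was made by closing an aneurysm clip of 60 g on the cord at T10 for 1 min. At 7 days post-injury the rats received hUC-MSCs (+MSC) or phosphate-buffered saline (+PBS) by the intrathecal route, and RNA was taken from the 5 mm of cord centred on the lesion at 1, 2 and 4 weeks post-transplantation. Injured cord taken when the cells would have been given formed the sub-SCI group, and comparable segments of intact or sham-operated rats formed the Intact group. Injured rats were given cyclosporin A every day according to the study's methods, which do not say whether the Intact rats were. Before transplantation there were 4 Intact and 3 sub-SCI libraries. The saline arm had 3 at 1 week (+PBS-1w), 2 at 2 weeks (+PBS-2w) and 4 at 4 weeks (+PBS-4w), and the cell arm had 3 (+MSC-1w), 3 (+MSC-2w) and 4 (+MSC-4w), each a poly(A) RNA-seq library that the methods call a biological replicate. The methods give another number of +MSC-2w repeats than the labels, and the labels were followed here. The transplanted cells were a human xenograft, and reads that mapped to the human genome were taken out before the rat genes were counted.

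Guidance cues steer growing axons by attraction or repulsion, and many are also used by blood vessels, immune cells and scar-forming cells. Semaphorins act through plexins, with neuropilins as co-receptors for the secreted class 3 members, whereas ephrins stay on the cell surface and signal to and from Eph receptor tyrosine kinases. Slits repel axons through Robo receptors, and netrins attract them through Dcc or repel them through Unc5 receptors. In the injured cord, Sema4d and ephrin-B3 are known as inhibitors of axon growth carried by oligodendrocytes and myelin, and class 3 semaphorins as products of the fibrotic scar.

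The libraries held 19496602 to 43468509 counts, and 63 of the 68 genes had at least 10 counts in every library. The exceptions were Efna5, Ntn5, Robo3, Robo4 and Unc5d. Levels below are in CPM (counts scaled to the library's total, with the TMM factors of edgeR), listed in the order of the replicate numbers. A gene was taken as differentially expressed (a DEG) where its log2 fold change was over 1 in size with an adjusted p under 0.01 in edgeR's quasi-likelihood test over all 17990 genes tested. As a check of the tissue, the 10 neuron markers (Rbfox3, Snap25 and the like) summed to 11860 to 14190 CPM in Intact, 584.6 to 2700 CPM in sub-SCI, 1454 to 7611 CPM in the +PBS groups and 4444 to 10920 CPM in the +MSC groups. The 8 fibroblast and meningeal markers summed to 221.2 to 1361 CPM in Intact, 8083 to 19660 CPM in sub-SCI, 1285 to 9588 CPM in the +PBS groups and 602.5 to 3739 CPM in the +MSC groups. The 10 microglia and macrophage markers summed to 340.7 to 572.6 CPM in Intact and 5053 to 6021 CPM in sub-SCI. Cldn5, an endothelial marker, was at 0 in every group. The library +PBS-4w replicate 1 stood apart from its group. Its neuron sum was 7611 CPM against 2114 to 2942 CPM and its fibroblast sum 1285 CPM against 4236 to 5256 CPM in the other 3. It was the lowest of the 4 libraries for 45 of the 68 genes (66.2%) and the highest for 11 (16.2%). Among the 45 was Plxna4, at 2.94 CPM against 18.8 to 23.1 CPM, and among the 11 Unc5a, at 13.4 CPM against 4.62 to 6.93 CPM. The 68 genes made up 0.2341% of its counts, against 0.3702% to 0.4202% in the other 3. Why this library differed was not tested. In tissue of mixed cells, fewer cells of a type and less RNA per cell cannot be told apart, and this holds for every level below.

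Per kilobase of gene length, the guidance genes of the intact cord were led by 2 membrane semaphorins. Sema4d, a repellent that binds class B plexins, had 106 ± 9.72 RPKM (SD, n = 4), and Sema7a, the GPI-anchored semaphorin that signals through integrins and Plxnc1, had 99.6 ± 3.34 RPKM. The next were Plxnb3 at 51.1 ± 2.63 RPKM, Sema6d at 37.3 ± 4.22 RPKM, the netrin receptor Unc5b at 34.8 ± 2.72 RPKM and Plxnb1 at 25 ± 2.39 RPKM. Sema4d and Sema7a stood at more than the value of any other member, and their own ranges could not be separated by their SD. Among the ephrins, Efna3 (17.1 ± 0.784 RPKM) and Efnb3 (12.6 ± 3.62 RPKM) were highest, and among the Eph receptors Ephb6 (16.4 ± 1 RPKM), whose kinase domain is catalytically inactive, and Epha10 (13.1 ± 0.809 RPKM). The lowest levels per length were those of Robo3 (0.062 ± 0.0217 RPKM) and of the endothelial Robo4 (0.0534 ± 0.028 RPKM).

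**Figure D1:**
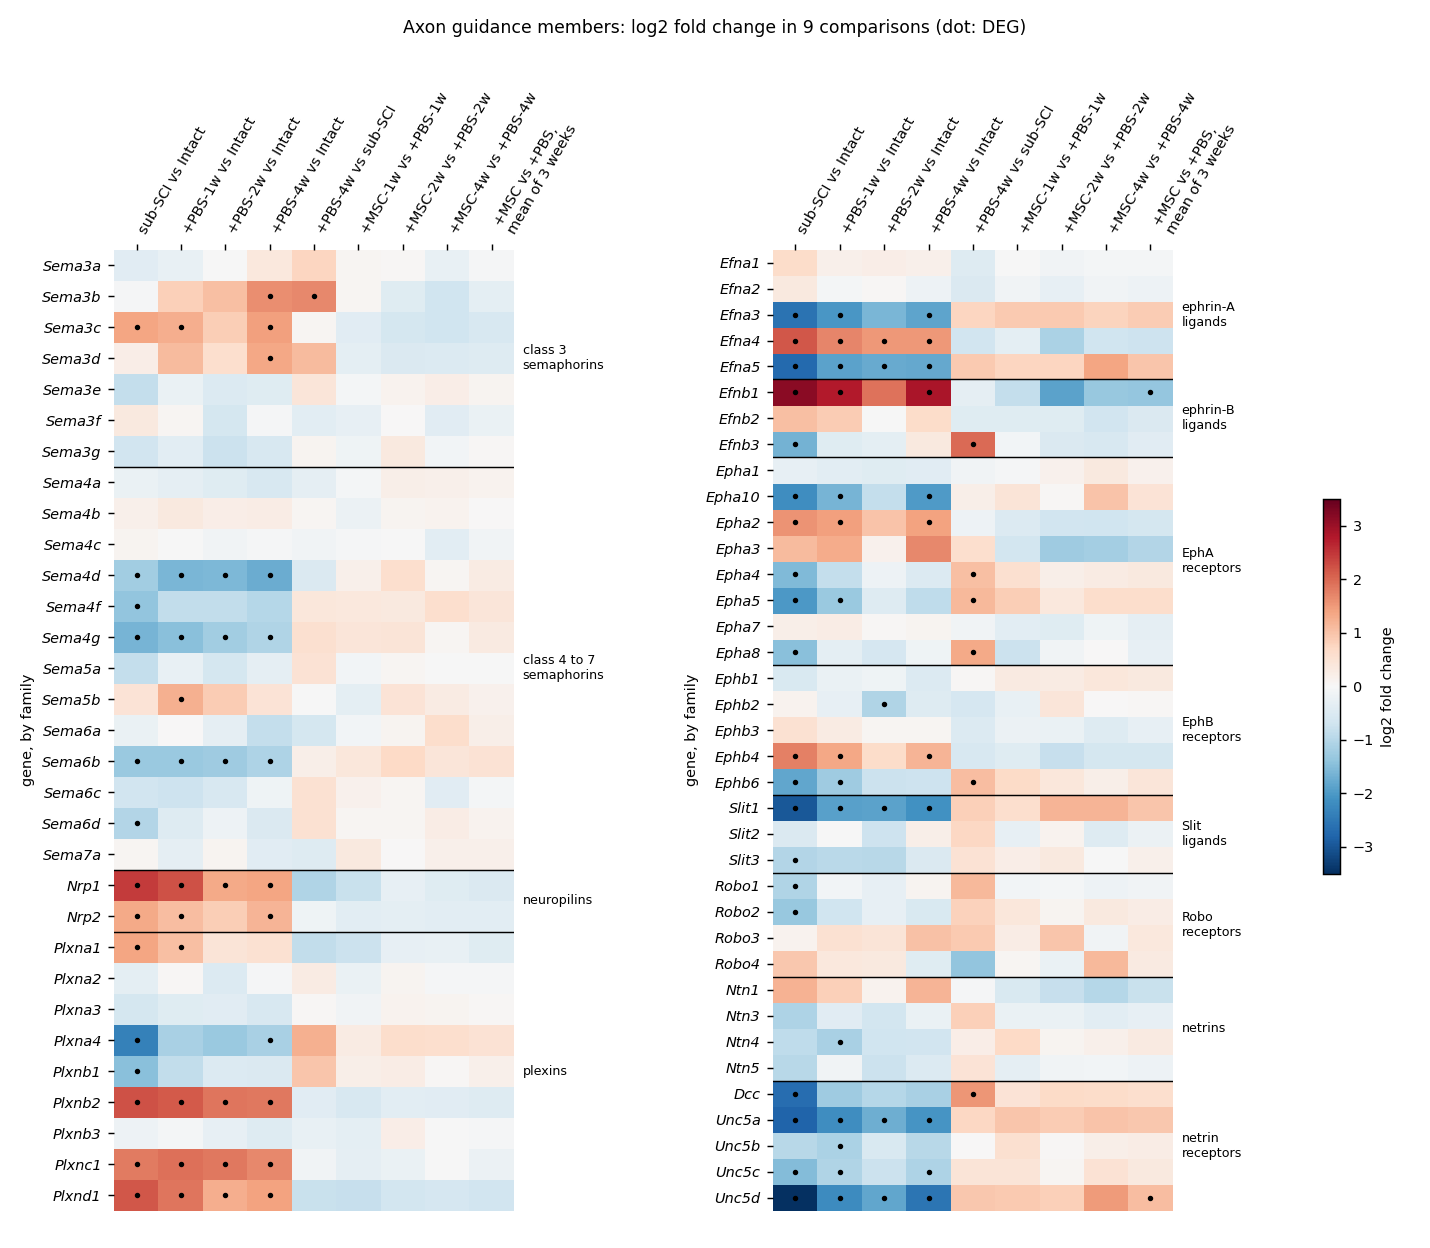
Log2 fold change of each of the 68 guidance genes (rows, by family) in the 9 comparisons (columns), with a dot where a gene was a DEG. The 4 columns against Intact hold 34, 26, 13 and 23 dots, the 3 weekly +MSC columns hold none, and the column for the mean of the 3 weeks holds 2.

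The first comparison asked how the lesion changed the guidance genes at the time of transplantation. Against Intact, 11 of the 68 genes were higher in sub-SCI, where 16.6% of all tested genes were higher, and 23 (33.8% of the 68) were lower, where 17.5% of all were lower. The higher genes were both neuropilins, 4 plexins, Efnb1, Efna4, Ephb4, Epha2 and Sema3c. The lower genes included 4 of the 5 netrin receptors, 2 of 3 Slits, 2 of 4 Robos, 4 of 8 EphA receptors and 5 of 13 class 4 to 7 semaphorins. At an adjusted p under 0.05 alone, 14 were higher (30.5% of all) and 31 lower (30.9% of all), and the libraries of both groups did not overlap for 17 higher (32.9% of all) and 31 lower members (34% of all). The median log2 fold change was -0.45 over the 68 genes and -0.02 over all genes tested. The lower genes moved with the neuron list (9 of 10 markers lower, median log2 fold change -2.86) and the higher ones with the fibroblast list (8 of 8 higher, median 3.87) and the microglia list (10 of 10 higher, median 3.74), and the part of these cells in the gene results was not tested. Astrocyte and oligodendrocyte markers were lower for 5 of 8 each, 2 of the 6 endothelial and 2 of the 7 Schwann cell markers tested were higher, and none of these 4 lists had a DEG in the other direction.

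Among the secreted class 3 semaphorins, Sema3c was the only one of 7 that passed both thresholds in sub-SCI. Sema3c, which attracts or repels axons through neuropilins and also guides vessels, stood at 31.5, 49.5, 76.5 and 40.9 CPM in the 4 Intact libraries and at 94.3, 108 and 184 CPM in the 3 sub-SCI libraries. Every sub-SCI library lay above every Intact library (log2 fold change 1.37 ± 0.31 (SE), adjusted p = 0.000694), and without sub-SCI replicate 3 its adjusted p was 0.0121. At the other end of this family, Sema3e, a ligand of Plxnd1 that needs no neuropilin, stood at 16.3, 18.2, 16 and 14.8 CPM in Intact and at 9.77, 8.92 and 8.54 CPM in sub-SCI. The groups did not overlap, and the adjusted p was past its threshold while the fold change was not (log2 fold change -0.84 ± 0.18 (SE), adjusted p = 0.000413). Sema3a, the collapsin-type repellent of the fibrotic scar, had a log2 fold change of -0.40 ± 0.46 (SE) with overlapping groups and an adjusted p of 0.472. Sema3b, Sema3d, Sema3f and Sema3g were not DEGs either, with log2 fold changes from -0.67 (Sema3g) to 0.33 (Sema3f).

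No class 4 to 7 semaphorin rose in sub-SCI and 5 of 13 fell, all of them membrane-bound. Sema4g had the smallest adjusted p of the 13, and its levels were 39.7, 43.8, 44 and 42.7 CPM in Intact and 12.9, 16.6 and 11.8 CPM in sub-SCI. All 3 injured libraries were below all 4 intact ones (log2 fold change -1.63 ± 0.16 (SE), adjusted p = 3.21e-08). Sema4d was at 414, 489.5, 398 and 444 CPM in Intact and at 259, 177 and 131 CPM in sub-SCI. It too fell without overlap (log2 fold change -1.21 ± 0.31 (SE), adjusted p = 0.00189), though its adjusted p was 0.0102 without sub-SCI replicate 2 and 0.0183 without sub-SCI replicate 3. Sema4f (-1.38), Sema6b (-1.29) and Sema6d (-1.04) were the other 3 DEGs by log2 fold change, of which Sema6d was under the threshold on the fold, at -0.97 to -0.88, without Intact replicate 1 or 3, sub-SCI replicate 2 or 3, +PBS-2w replicate 1 or +PBS-4w replicate 1. Sema7a, the second most abundant member of the intact cord per length, stood at 265, 272, 255 and 253 CPM in Intact and 342, 268 and 213 CPM in sub-SCI. Its groups overlapped and no difference passed the test (log2 fold change 0.07 ± 0.18 (SE), adjusted p = 0.751). The highest fold change of the family belonged to Sema5b, at 33, 36.4, 17.4 and 25.9 CPM in Intact and 58, 37.3 and 21.7 CPM in sub-SCI. Those groups overlapped as well (log2 fold change 0.47 ± 0.37 (SE), adjusted p = 0.281).

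The receptors of the semaphorins moved in both directions. The neuropilins rose together, and their summed level per length went from 14.7 ± 2.24 RPKM (SD, n = 4) in Intact to 56.9 ± 10.03 RPKM (n = 3) in sub-SCI. Nrp1, a co-receptor for class 3 semaphorins and for VEGF, stood at 32.5, 36.7, 44.5 and 39 CPM in Intact and at 175, 209.8 and 236 CPM in sub-SCI. The lowest injured library was above the highest intact one (log2 fold change 2.44 ± 0.33 (SE), adjusted p = 2.12e-06). Nrp2, its paralogue with a preference for Sema3f and VEGF-C, went from 36.8, 51.4, 55.4 and 56.9 CPM to 107, 109 and 163 CPM. The groups were separate again (log2 fold change 1.34 ± 0.31 (SE), adjusted p = 0.00088). Within the neuropilin pair, Nrp1 made up 46.7% ± 2.87 (SD, n = 4) of the summed RPKM in Intact and 65.3% ± 3.24 (n = 3) in sub-SCI.

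Of the 9 plexins, 4 rose and 2 fell. Plxnb2, a receptor for class 4 semaphorins found on many cell types, had the smallest adjusted p among the higher members, at 82.1, 105, 113 and 121 CPM in Intact and 457, 495 and 535 CPM in sub-SCI. Every sub-SCI value exceeded every Intact value (log2 fold change 2.23 ± 0.20 (SE), adjusted p = 6.34e-09). Plxnd1, the Sema3e receptor of endothelial cells and some neurons, stood at 29.6, 39.4, 30.3 and 31.9 CPM in Intact and 136, 131 and 179 CPM in sub-SCI. Here also the groups were apart (log2 fold change 2.18 ± 0.28 (SE), adjusted p = 9.38e-07). For Plxna1, a partner of neuropilins in class 3 signalling, the values were 93.9, 101, 114 and 97.3 CPM and 248, 275 and 278 CPM. It rose without overlap (log2 fold change 1.39 ± 0.23 (SE), adjusted p = 2.19e-05). Plxnc1, the Sema7a receptor, was the fourth plexin that rose (log2 fold change 1.82 ± 0.30 (SE), adjusted p = 2.48e-05). In the opposite direction, Plxna4, a neuronal plexin that transmits Sema3a repulsion, was at 38.1, 35, 38.7 and 28.3 CPM in Intact and at 6.54, 7.83 and 6.07 CPM in sub-SCI. All injured libraries were lower (log2 fold change -2.36 ± 0.39 (SE), adjusted p = 2.27e-05). Plxnb1, a Sema4d receptor, fell as well (log2 fold change -1.47 ± 0.20 (SE), adjusted p = 1.55e-06). Plxnb3, the most abundant plexin of the intact cord per length, had a log2 fold change of -0.17 ± 0.23 (SE) that did not pass the test (adjusted p = 0.532).

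**Figure D2:**
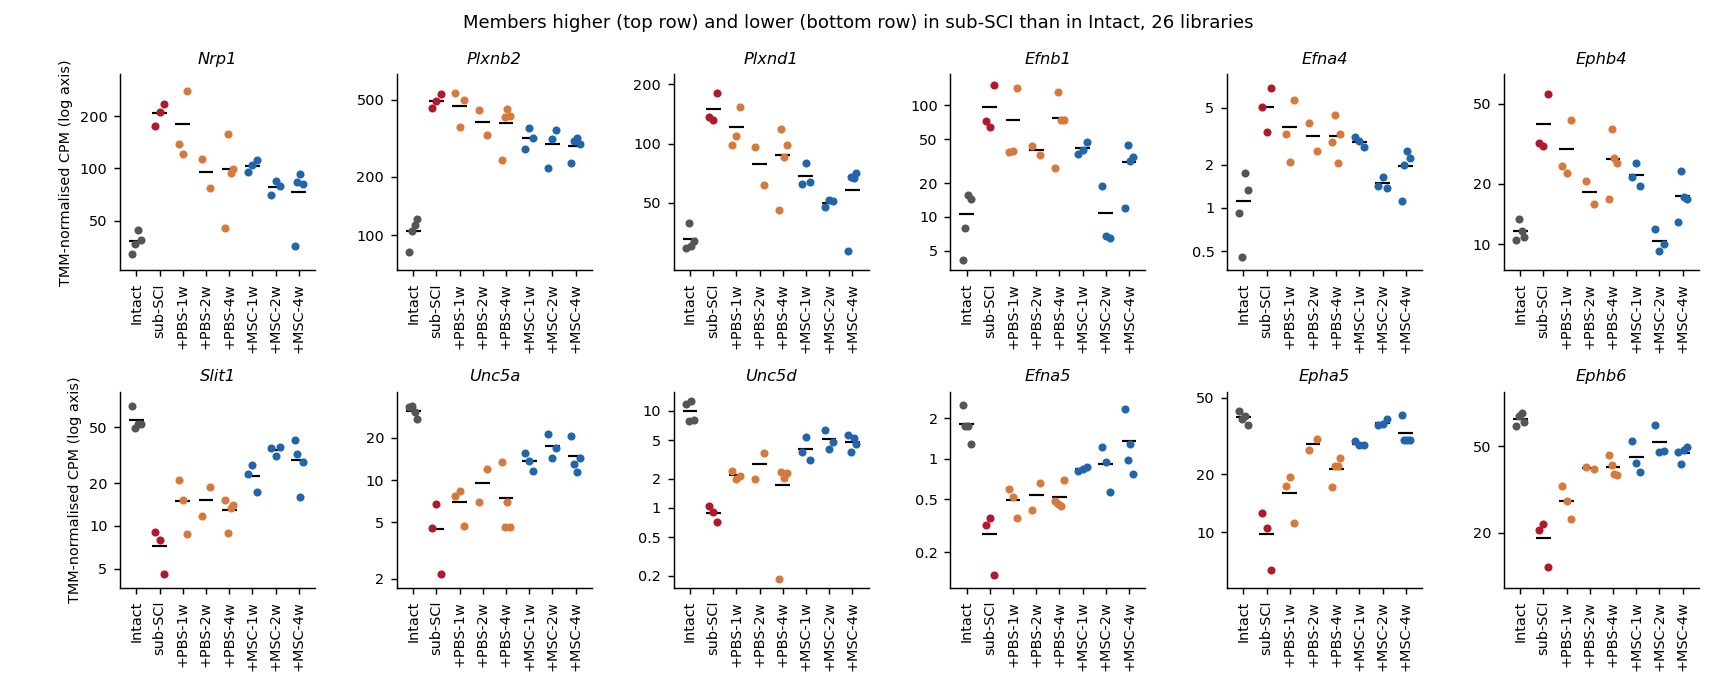
Level of 12 guidance genes in each library (points, CPM on a log axis) by group, with a line at the group mean. The 6 genes of the upper row (Nrp1, Plxnb2, Plxnd1, Efnb1, Efna4, Ephb4) were DEGs with higher levels in sub-SCI than in Intact, and the 6 of the lower row (Slit1, Unc5a, Unc5d, Efna5, Epha5, Ephb6) were DEGs with lower levels.

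Each ephrin family held DEGs in both directions. Efnb1, a ligand of EphB receptors found on mesenchymal and neural progenitor cells, rose more than any other of the 68 genes by fold, from 4.15, 8.02, 15.9 and 14.5 CPM in Intact to 72.7, 63.9 and 152 CPM in sub-SCI. No values overlapped (log2 fold change 3.17 ± 0.58 (SE), adjusted p = 7.28e-05). The highest Efnb1 value of the sub-SCI group came from replicate 3, the library whose fibroblast markers summed to 19660 CPM against 8083 and 9228 CPM in the other 2. Those 2 had Efnb1 at 72.7 and 63.9 CPM, in the opposite order, and the part of fibroblasts was not tested. Efnb3, the myelin-borne ligand of EphA4 and EphB receptors, fell from 25.2, 40.3, 39.9 and 53 CPM to 16.1, 9.03 and 12.7 CPM. Each sub-SCI library was below each Intact one (log2 fold change -1.65 ± 0.32 (SE), adjusted p = 0.000132). Efnb2, the arterial ephrin, had an adjusted p of 0.0117 with a log2 fold change of 1.06 ± 0.35 (SE), past the second threshold of 0.05 alone. Per length, Efnb3 made up 63.9% ± 4.68 (SD, n = 4) of the summed ephrin-B level in Intact and 10.5% ± 4.38 (n = 3) in sub-SCI, and Efnb1 went from 15.7% ± 5.2 to 69.5% ± 4.98.

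Among the ephrin-A ligands, Efna4 rose from 0.928, 0.458, 1.76 and 1.33 CPM in Intact to 5.03, 3.41 and 6.85 CPM in sub-SCI. Its groups were separate (log2 fold change 2.18 ± 0.39 (SE), adjusted p = 5.04e-05). Efna5, the ligand of topographic mapping in the brain, was a gene of low count that fell from 2.51, 1.74, 1.76 and 1.29 CPM to 0.32, 0.362 and 0.136 CPM. The groups were separate in the other direction (log2 fold change -2.72 ± 0.42 (SE), adjusted p = 8.61e-06). Efna3, the highest ephrin per length in the intact cord, was at 12.6, 11.5, 11.3 and 11.7 CPM in Intact and 1.98, 3.15 and 0.78 CPM in sub-SCI. It fell in all 3 libraries (log2 fold change -2.58 ± 0.51 (SE), adjusted p = 0.000178), and its share of the summed ephrin-A level per length went from 48% ± 1.86 (SD, n = 4) to 10.5% ± 6.8 (n = 3). The share of Efna1, a ligand of EphA2, went from 22.3% ± 2.94 to 44% ± 8.18.

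**Figure D3:**
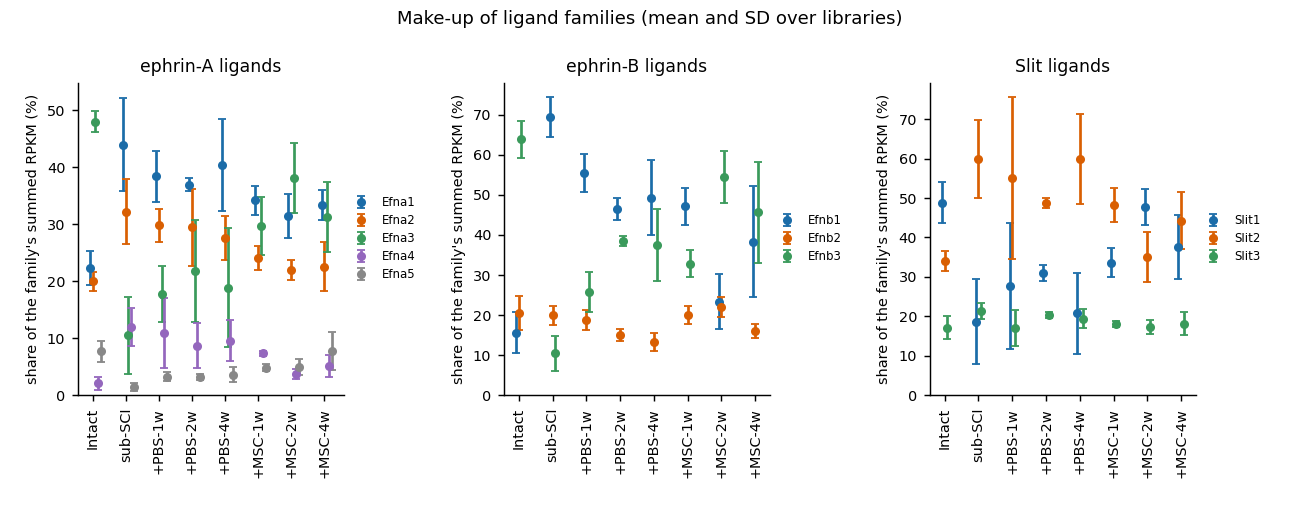
Share of the summed RPKM of its family held by each ephrin-A, ephrin-B and Slit ligand in the 8 groups (mean and SD over libraries, in percent). Efnb3 and Efnb1 change places between Intact (63.9% and 15.7%) and sub-SCI (10.5% and 69.5%), and +MSC-2w (54.5% and 23.4%) is the group after injury with the highest mean Efnb3 share. A share is not a level: Efnb3 stood at 28, 20.3 and 18 CPM in +MSC-2w, below both +PBS-2w libraries (32.6 and 30.3 CPM).

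Of the Eph receptors, 5 of 13 fell and 2 rose. Epha5, a receptor of ephrin-A ligands on axons, stood at 43, 39, 40.1 and 36.1 CPM in Intact and 12.6, 10.4 and 6.38 CPM in sub-SCI. The 2 groups did not overlap (log2 fold change -2.01 ± 0.20 (SE), adjusted p = 2.56e-08). Ephb6 had the smallest adjusted p of all 68 genes, at 61.9, 69.1, 70.9 and 64.7 CPM in Intact and 20.6, 21.9 and 13.9 CPM in sub-SCI. All sub-SCI values were lower (log2 fold change -1.83 ± 0.16 (SE), adjusted p = 4.79e-09). Epha10, which like Ephb6 is held to be a pseudokinase, went from 41.6, 42.6, 37.6 and 38.3 CPM to 10.4, 11.6 and 4.34 CPM. It showed the lowest fold change of the EphA receptors, without overlap (log2 fold change -2.18 ± 0.31 (SE), adjusted p = 2.97e-06). Epha4, the receptor of ephrin-B3 on corticospinal axons and on astrocytes, fell from 53.6, 46.5, 52.9 and 51 CPM to 17.6, 22.7 and 12.3 CPM. These groups too were separate (log2 fold change -1.54 ± 0.21 (SE), adjusted p = 2.19e-06). The fourth EphA receptor that fell was Epha8 (log2 fold change -1.47 ± 0.32 (SE), adjusted p = 0.000495).

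A receptor of each Eph class rose. Epha2, an epithelial and endothelial receptor, stood at 3, 3.76, 4.53 and 3.65 CPM in Intact and 7.82, 8.41 and 17.4 CPM in sub-SCI. Its groups did not overlap (log2 fold change 1.58 ± 0.36 (SE), adjusted p = 0.000649), and without sub-SCI replicate 3 the adjusted p was 0.014. Ephb4, the venous partner of Efnb2, went from 10.5, 13.3, 11.6 and 10.9 CPM to 31.9, 30.8 and 56 CPM. All 3 sub-SCI libraries were higher (log2 fold change 1.77 ± 0.26 (SE), adjusted p = 4.76e-06). Epha1, Epha3, Epha7, Ephb1, Ephb2 and Ephb3 did not pass either threshold on the adjusted p in this comparison, with log2 fold changes from -0.52 (Ephb1) to 1.10 (Epha3).

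Slit and Robo genes fell or did not pass the test. Slit1, the Slit that is found mainly in neurons, stood at 70.7, 49.2, 52.5 and 52.4 CPM in Intact and at 9.01, 8.01 and 4.54 CPM in sub-SCI. The highest sub-SCI value was below the lowest Intact value (log2 fold change -2.96 ± 0.33 (SE), adjusted p = 1.39e-07). Slit3 fell too (log2 fold change -1.03 ± 0.24 (SE), adjusted p = 0.000778), with a log2 fold change of -0.97 to -0.77 without Intact replicate 2 or 3, sub-SCI replicate 1, +PBS-2w replicate 1 or +PBS-4w replicate 1. Slit2 was at 62.5, 61.3, 66.2 and 51.4 CPM in Intact and 24.7, 36.6 and 66.9 CPM in sub-SCI. The groups overlapped (log2 fold change -0.50 ± 0.42 (SE), adjusted p = 0.31), and the family sum went from 23.2 ± 2.09 to 8.96 ± 3.08 RPKM (SD), while Slit2 went from 34% ± 2.51 of it in Intact to 59.9% ± 9.89 in sub-SCI. Robo2, a neuronal Slit receptor, went from 91.5, 81.3, 87.5 and 88.5 CPM to 42.2, 34.7 and 26.8 CPM. Every library of the injured group was lower (log2 fold change -1.33 ± 0.16 (SE), adjusted p = 2.63e-07). Robo1 was also a DEG (log2 fold change -1.05 ± 0.33 (SE), adjusted p = 0.00851), with an adjusted p of 0.0153 to 0.0382 when any 1 sub-SCI library was left out, and leaving out any of 18 of the 26 libraries ended the call. Robo4, the highest fold change of its family, had a median of 4 counts over all libraries and stood at 0.218, 0.229, 0.0925 and 0.076 CPM in Intact and 0.494, 0 and 0.373 CPM in sub-SCI. At this depth no difference was detectable (log2 fold change 0.95 ± 0.94 (SE), adjusted p = 0.393).

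All 5 netrin receptors were lower in sub-SCI at an adjusted p under 0.05, and 4 of them were DEGs. Their summed level per length was 57.4 ± 3.49 RPKM (SD, n = 4) in Intact and 21.8 ± 4.71 RPKM (n = 3) in sub-SCI. Unc5d, a gene of low count that mediates netrin repulsion and binds Flrt proteins, had the lowest fold change of all 68 genes, with 11.8, 7.83, 12.5 and 8.13 CPM in Intact and 1.05, 0.906 and 0.712 CPM in sub-SCI. No value of the groups overlapped (log2 fold change -3.49 ± 0.49 (SE), adjusted p = 3.01e-06). Unc5a was at 33.1, 33.8, 30.3 and 27.3 CPM and 4.53, 6.78 and 2.14 CPM. It fell in every library (log2 fold change -2.80 ± 0.39 (SE), adjusted p = 2.35e-06). Dcc, the receptor for attraction by netrin-1, went from 11.7, 10.8, 15.1 and 9.39 CPM to 2.21, 2.39 and 0.915 CPM. It fell without overlap (log2 fold change -2.67 ± 0.43 (SE), adjusted p = 1.61e-05), as did Unc5c (log2 fold change -1.53 ± 0.23 (SE), adjusted p = 8.61e-06). Unc5b, the most abundant of the 5 per length, went from 201, 210.3, 174 and 196 CPM to 120.0, 99.1 and 79.4 CPM. The groups were separate and the fold change was just under its threshold (log2 fold change -0.97 ± 0.18 (SE), adjusted p = 9.04e-05).

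None of the 4 netrin ligands was a DEG in edgeR for sub-SCI against Intact, where 3 had an unadjusted p under 0.05 (65% of all genes did). Ntn1, the secreted attractant of commissural axons, stood at 8.89, 12.4, 19.3 and 13.2 CPM in Intact and 19.9, 23.2 and 50.7 CPM in sub-SCI. The 3 injured libraries were above the 4 intact ones, but the adjusted p was past 0.05 only (log2 fold change 1.22 ± 0.47 (SE), adjusted p = 0.0306). Ntn3 had 8.84, 10.1, 8.88 and 9.24 CPM in Intact and 3.52, 3.66 and 5.97 CPM in sub-SCI. It showed the opposite order at a similar adjusted p (log2 fold change -1.08 ± 0.36 (SE), adjusted p = 0.0122). Ntn3 became a DEG without sub-SCI replicate 3 (adjusted p = 0.00809), +PBS-1w replicate 2 (adjusted p = 0.00635) or +PBS-1w replicate 3 (adjusted p = 0.00418). Ntn4, a netrin of basement membranes, had a log2 fold change of -0.90 ± 0.20 (SE) and an adjusted p of 0.000471.

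Promoters were read from RefSeq (build GRCr8), 250 bases before to 50 bases after the start, for the 53 of 68 genes that matched by name. Those of Efnb1 and Plxnd1 are printed because both genes rose in sub-SCI and were the 2 lower genes with the smallest p in the mean of +MSC against +PBS. Capitals mark the GC box GGGCGG on either strand.
Efnb1, chrX:68297279-68297578, plus strand: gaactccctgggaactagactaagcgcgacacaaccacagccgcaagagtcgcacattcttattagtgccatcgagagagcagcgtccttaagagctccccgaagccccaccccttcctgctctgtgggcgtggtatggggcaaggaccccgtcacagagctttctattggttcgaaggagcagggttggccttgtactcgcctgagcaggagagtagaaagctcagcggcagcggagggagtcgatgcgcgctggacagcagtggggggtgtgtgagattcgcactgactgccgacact
Plxnd1, chr4:150715138-150715437, minus strand: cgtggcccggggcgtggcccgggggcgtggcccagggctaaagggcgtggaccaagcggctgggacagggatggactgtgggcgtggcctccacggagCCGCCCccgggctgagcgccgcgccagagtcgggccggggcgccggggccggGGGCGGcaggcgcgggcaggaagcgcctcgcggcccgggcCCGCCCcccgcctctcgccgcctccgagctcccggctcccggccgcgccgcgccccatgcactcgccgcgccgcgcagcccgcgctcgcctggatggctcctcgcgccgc
The Efnb1 window held none of the 5 motifs searched, and the Plxnd1 window held 3 GC boxes, at bases 99, 151 and 191 from its left end. A GC box stood in 54.7% of the 53 windows and in 33.1% of all 33469 windows of 300 bases. The TATA box TATAAA stood in none of the 53 and in 14.2% of all, the AP-1 motif TGANTCA in 1.89% and 7.33%, the CRE TGACGTCA in 1.89% and 1.83%, and the E-box CACGTG in 9.43% and 6.42%, each searched on both strands. The end letters of the E-box can be shared with an AP-1 motif or a CRE, and a match is a description of the letters alone. Efnb3 and Unc5d were among the genes that did not match.

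The +PBS groups were then compared with Intact to follow the guidance genes in injured cord without cells. At 1 week, 12 genes were higher (13.5% of all tested genes were) and 14 were lower (12.5% of all). At 2 weeks, with 2 +PBS libraries, 5 were higher (8.84% of all) and 8 lower (5.66% of all), and at 4 weeks 12 were higher (13.3% of all) and 11 lower (10.7% of all). With an adjusted p under 0.05 as the only threshold, the higher and lower counts were 15 and 23 at 1 week (26.7% and 26.4% of all), 6 and 19 at 2 weeks (19.7% and 17% of all) and 16 and 26 at 4 weeks (28.6% and 23.9% of all). Groups that did not overlap with Intact were found for 14 higher and 25 lower members at 1 week (28.5% and 30.5% of all), 16 and 37 at 2 weeks (31.1% and 31.3% of all), and 9 and 27 at 4 weeks (22.4% and 21.3% of all). Without +PBS-1w replicate 3 the 1-week count was 7 higher, and without +PBS-2w replicate 1 the 2-week counts were 2 higher and 0 lower in edgeR. The 3 comparisons share the Intact libraries with each other and with the sub-SCI comparison, so their values are given side by side. In the same order, neuron markers had median log2 fold changes of -2.14, -1.51 and -1.88, fibroblast markers of 2.84, 1.36 and 2.32, and microglia and macrophage markers of 3.74, 3.18 and 2.96. Of these lists, 8, 3 and 8 of 10 neuron markers were lower, 8, 0 and 6 of 8 fibroblast markers higher and 10, 10 and 9 of 10 microglia and macrophage markers higher, and their part in these results was not tested.

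Plxnb2 had the smallest adjusted p among the higher genes at each week. It stood at 542, 360.1 and 498 CPM in +PBS-1w, 441 and 329 CPM in +PBS-2w and 244, 407, 449 and 415 CPM in +PBS-4w. All 9 libraries lay above the Intact range, with log2 fold changes of 2.14 ± 0.20, 1.87 ± 0.22 and 1.84 ± 0.19 (SE) and adjusted p of 2.14e-08, 1.04e-06 and 1.08e-07. Plxnc1 was at 12.7, 12.7, 13.1 and 14.2 CPM in Intact, then at 54, 40.0 and 55.8 CPM, 49.3 and 45.8 CPM and 23, 36.4, 57.8 and 52.7 CPM in the +PBS groups in order of week. It too was above Intact in every +PBS library, with log2 fold changes of 1.92 ± 0.30, 1.85 ± 0.33 and 1.68 ± 0.29 (SE). Plxnd1 was at 98.7, 109 and 154 CPM, 95.8 and 61.6 CPM and 46, 119, 85.6 and 98.4 CPM. The log2 fold changes were 1.88 ± 0.28, 1.26 ± 0.31 and 1.41 ± 0.26 (SE) with no overlap and adjusted p of 1.04e-05, 0.00303 and 0.000142. Nrp1 stood at 138, 121 and 278 CPM, 113 and 76.8 CPM and 45.5, 158, 93.7 and 99.3 CPM and was a DEG each week (log2 fold changes 2.23 ± 0.33, 1.31 ± 0.36 and 1.38 ± 0.31, SE). Its 2-week call was lost without any 1 of the 4 Intact or 2 +PBS-2w libraries (adjusted p of 0.0109 to 0.149), and that of Plxnd1 without +PBS-2w replicate 1 (adjusted p = 0.119).

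The ligands Efnb1 and Efna4 were higher at all 3 weeks, Efnb1 as a DEG at 1 and 4 weeks and Efna4 at each. Efnb1 stood at 38.4, 39.1 and 144 CPM in +PBS-1w, 43.6 and 35.6 CPM in +PBS-2w and 27.5, 133, 74 and 74.1 CPM in +PBS-4w. Every library exceeded the Intact range, with log2 fold changes of 2.79 ± 0.58, 1.89 ± 0.62 and 2.85 ± 0.56 (SE) and adjusted p of 0.000357, 0.0201 and 0.000217. The highest Efnb1 libraries of +PBS-1w (replicate 3) and +PBS-4w (replicate 2) had the highest fibroblast sums of their groups, 9588 and 5256 CPM. In +PBS-4w replicate 4 the fibroblast sum was 5143 CPM with Efnb1 at 74.1 CPM. In +MSC-1w the highest Efnb1 library, replicate 3 at 47.1 CPM, had a fibroblast sum of 2853 CPM against 3739 CPM in replicate 2. The part of fibroblasts in the Efnb1 level was not tested. Efna4 was at 3.27, 2.09 and 5.68 CPM, 3.91 and 2.5 CPM and 2.91, 4.48, 2.06 and 3.3 CPM. Its log2 fold changes were 1.71 ± 0.39, 1.51 ± 0.42 and 1.50 ± 0.37 (SE) without overlap. The Efna4 call at 2 weeks was lost when any of 16 of the 26 libraries was left out (adjusted p of 0.0103 to 0.159), and the call at 1 week without +PBS-1w replicate 3 (adjusted p = 0.0148). Ephb4 was at 24.5, 22.7 and 41.8 CPM, 20.6 and 15.8 CPM and 16.8, 37.4, 27 and 25.3 CPM, higher than Intact in every library and a DEG at 1 and 4 weeks, the latter with a log2 fold change of 0.99 without +PBS-4w replicate 2.

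On the lower side, Slit1 and Sema4g passed both thresholds at every week, though for Sema4g the log2 fold change was -0.97 at 2 weeks without +PBS-2w replicate 1 and -0.98 at 4 weeks without +PBS-4w replicate 1. Slit1 stood at 21.1, 15.2 and 8.73 CPM, 11.7 and 18.8 CPM and 15.2, 8.86, 13.4 and 13.9 CPM in order of week. All were below Intact, with log2 fold changes of -1.90 ± 0.31, -1.88 ± 0.37 and -2.13 ± 0.29 (SE) and adjusted p of 3.47e-05, 0.000462 and 3.23e-06. Sema4g was at 12.7, 15.3 and 18.6 CPM, 15.4 and 21.3 CPM and 18.9, 25.4, 18.9 and 18.2 CPM. It was also lower in every library, by log2 fold changes of -1.45 ± 0.16, -1.21 ± 0.19 and -1.06 ± 0.15 (SE). Sema4d, the most abundant member per length, was at 146, 213 and 71.8 CPM, 156 and 135 CPM and 162, 87.5, 93 and 186 CPM. It fell at each week without overlap (log2 fold changes -1.60 ± 0.31, -1.59 ± 0.37 and -1.72 ± 0.29, SE). At 2 weeks the Sema4d call was lost without either +PBS-2w library (adjusted p of 0.0299 and 0.0322), and the Slit1 call without +PBS-2w replicate 1 (adjusted p = 0.0343). Oligodendrocyte markers were lower for 5, 2 and 5 of 8 at 1, 2 and 4 weeks, and the part of oligodendrocytes in the Sema4d level was not tested.

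Sema6b, a membrane semaphorin that binds class A plexins, was at 80.6, 86.4, 78.9 and 77 CPM in Intact, 36.5, 35.1 and 27.5 CPM in +PBS-1w, 29.2 and 39.1 CPM in +PBS-2w and 59.4, 24.1, 39.8 and 28.5 CPM in +PBS-4w. Its level was below Intact at each week and a DEG each time, with log2 fold changes of -1.29 ± 0.26, -1.24 ± 0.30 and -1.09 ± 0.23 (SE). Its adjusted p at 2 weeks was 0.0834 without +PBS-2w replicate 1, and its log2 fold change at 4 weeks was -0.92 without +PBS-4w replicate 2 and -0.97 without replicate 4. Ephb2, an ephrin-B receptor of synapses, was a DEG only at 2 weeks, with 17.5, 16.8, 19.3 and 15 CPM in Intact and 7.97 and 8.47 CPM in the 2 +PBS-2w libraries (log2 fold change -1.06 ± 0.25 (SE), adjusted p = 0.00208). The Ephb2 call was lost without Intact replicate 3 or either +PBS-2w library (adjusted p of 0.00611 to 0.054). Its adjusted p was 0.272 at 1 week and 0.0534 at 4 weeks, and a difference between the weeks was not tested. Among the netrin receptors, Unc5a was at 7.7, 8.43 and 4.68 CPM, 6.95 and 12.1 CPM and 13.4, 4.62, 6.93 and 4.68 CPM, below Intact throughout (log2 fold changes -2.16 ± 0.37, -1.71 ± 0.43 and -2.07 ± 0.34, SE), with an adjusted p of 0.112 at 2 weeks without +PBS-2w replicate 1. Unc5d was at 2.41, 1.98 and 2.12 CPM, 1.99 and 3.72 CPM and 0.186, 2.36, 2.01 and 2.29 CPM. The 0.186 CPM of +PBS-4w replicate 1 was the lowest of the 9, and all were below Intact. Unc5b was at 94.4, 115 and 63.2 CPM in +PBS-1w and passed both thresholds there (log2 fold change -1.11 ± 0.18 (SE), adjusted p = 3.57e-05), with a log2 fold change of -0.90 without +PBS-1w replicate 3.

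Between sub-SCI and +PBS-4w, 7 genes rose, where 4.28% of all tested genes rose, and none fell, where 3.09% fell, at edgeR's thresholds. At an adjusted p under 0.05 there were 14 higher (13.4% of all) and 5 lower (11.6% of all), and groups without overlap for 9 higher (12.5% of all) and 6 lower (13.8% of all). In the lower direction DESeq2 called 1 with all libraries and 0 with the 2 groups alone. Without an adjustment 31 of the 68 genes had p under 0.05 in either direction, as did 36.9% of all. The 7 were Ephb6, Efnb3, Epha5, Epha4, Epha8, Dcc and Sema3b. Over the same interval 5 of 8 astrocyte markers were higher (median log2 fold change 1.19), no neuron marker passed both thresholds (median 0.95) and the fibroblast markers had a median of -1.55, and the part of these cells was not tested. The count depended on single libraries, with 12 genes higher without +PBS-4w replicate 1, 2 without sub-SCI replicate 3, and 4 without sub-SCI replicate 2 or +PBS-4w replicate 2, 3 or 4. With edgeR on the 2 groups alone, 1 gene was higher.

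Efnb3 had the largest fold change of the 7, from 16.1, 9.03 and 12.7 CPM in sub-SCI to 34, 58.2, 49.2 and 57.9 CPM in +PBS-4w. All 4 later libraries were above all 3 earlier ones (log2 fold change 1.98 ± 0.32 (SE), adjusted p = 0.000174), and in +PBS-4w it overlapped the Intact range (log2 fold change against Intact 0.33 ± 0.28, SE). Of the receptors, Ephb6, Epha5, Epha4 and Epha8 rose, and no other Eph receptor passed both thresholds. Ephb6 went from 20.6, 21.9 and 13.9 CPM to 45.4, 40.7, 37.3 and 36.7 CPM. It rose without overlap (log2 fold change 1.09 ± 0.16 (SE), adjusted p = 4.46e-05) and was still below Intact (adjusted p = 0.00018). Epha5 went from 12.6, 10.4 and 6.38 CPM to 17.1, 22.1, 22.1 and 24.3 CPM, again without overlap (log2 fold change 1.13 ± 0.19 (SE), adjusted p = 0.000274). Epha4 was at 29.9, 49.6, 33.5 and 32.4 CPM in +PBS-4w, above every sub-SCI library (log2 fold change 1.05 ± 0.21 (SE), adjusted p = 0.00096). Without sub-SCI replicate 3 the log2 fold changes of Ephb6, Epha5 and Epha4 were 0.91, 0.89 and 0.85, under the threshold on the fold, and that of Epha4 was 0.86 without +PBS-4w replicate 2. Epha8, at 12.5, 8.66, 8.88 and 7.83 CPM in Intact, was at 4.97, 3.23 and 2.03 CPM in sub-SCI and 4.81, 6.46, 13.2 and 9.91 CPM in +PBS-4w. The groups overlapped (log2 fold change 1.32 ± 0.32 (SE), adjusted p = 0.0047), and its adjusted p was 0.0133 to 0.0422 without sub-SCI replicate 2 or 3 or +PBS-4w replicate 3 or 4.

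Dcc was at 1.34, 5.86, 6.89 and 7.43 CPM in +PBS-4w, and it overlapped with sub-SCI (log2 fold change 1.54 ± 0.42 (SE), adjusted p = 0.00963), and leaving out any of 23 of the 26 libraries ended the call, with an adjusted p of 0.0105 to 0.0697. Sema3b, a secreted semaphorin, did not pass the test between sub-SCI and Intact (adjusted p = 0.942), and stood at 50.3, 40.3 and 78.8 CPM in sub-SCI and at 100.1, 230.4, 199.9 and 189 CPM in +PBS-4w. The groups were separate (log2 fold change 1.67 ± 0.41 (SE), adjusted p = 0.00483), with an adjusted p of 0.0105 to 0.0305 without sub-SCI replicate 1 or 2 or +PBS-4w replicate 2, 3 or 4, and +PBS-4w was above Intact too (log2 fold change 1.63 ± 0.37 (SE), adjusted p = 0.000859). Sema3d, at 9.28, 56.2, 52.4 and 58.2 CPM in +PBS-4w, was a DEG against Intact (log2 fold change 1.34 ± 0.34 (SE), adjusted p = 0.00226) and not against sub-SCI (log2 fold change 1.10 ± 0.37 (SE), adjusted p = 0.0326). Over the same libraries, Schwann cell markers summed to 2175 to 4228 CPM in +PBS-4w, 726.8 to 1250 CPM in sub-SCI and 334 to 1855 CPM in Intact. Between sub-SCI and +PBS-4w, 0 of the 7 Schwann cell markers were DEGs and 5 had a positive log2 fold change. In +PBS-4w replicate 1, where Sema3d was at 9.28 CPM, the Schwann cell sum was 2175 CPM. The fibroblast sum of that library was 1285 CPM, against 4236 to 5256 CPM in the rest of its group. The part of these cells in the Sema3b and Sema3d levels was not tested.

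**Figure D4:**
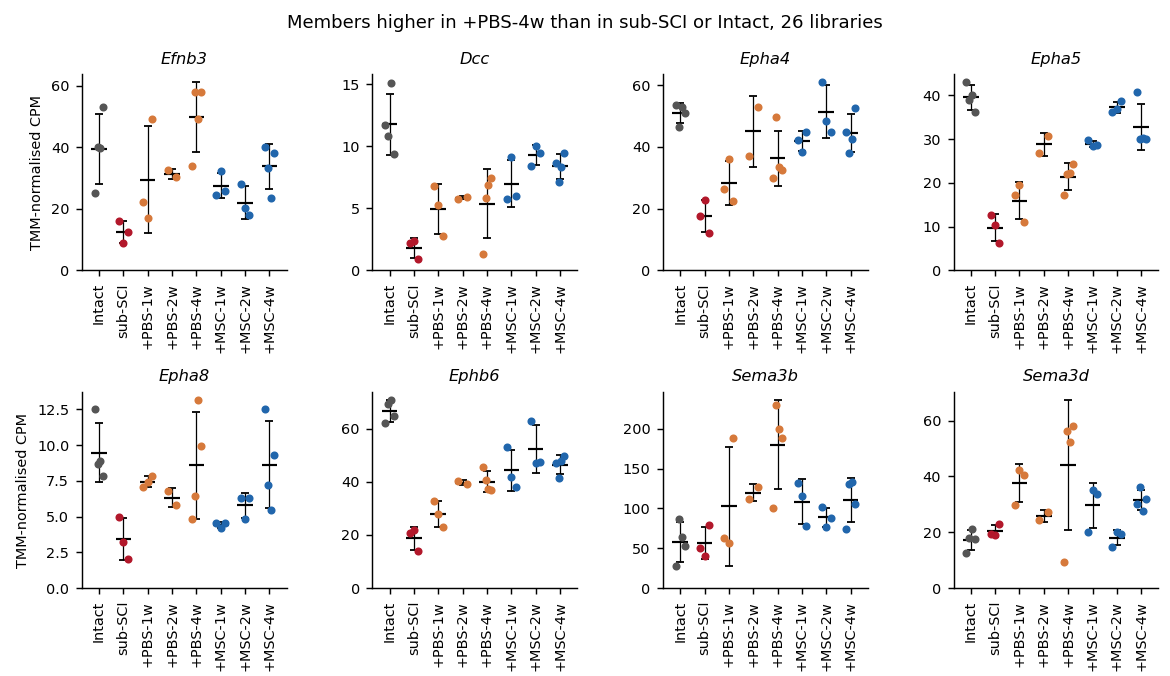
Level (CPM, linear axis from 0) of the 7 genes that rose between sub-SCI and +PBS-4w and of Sema3d, in each library (points) with the group mean and SD. Efnb3, Epha4 and Epha8 in +PBS-4w reach into the Intact range, Ephb6 and Epha5 stay below it, and Sema3b lies above it.

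The comparison of +MSC with +PBS at each week asked what the transplanted cells changed, against saline-treated cord of the same age. No guidance gene was a DEG in edgeR at 1 week (0 higher and 0 lower, where 0% and 0.0111% of all tested genes were), at 2 weeks (0% and 0% of all) or at 4 weeks (0.495% and 0% of all). At an unadjusted p under 0.05 there were 13, 7 and 19 of the 68 genes, against 17.9%, 12.3% and 22.5% of all. DESeq2 on all libraries called 0, 0 and 4 members, and on the 2 groups alone 0, 3 and 1. The study used DESeq2 with the same thresholds and reported genes changed by injury and reversed by the cells at each of the 3 weeks. The shares of all genes given here are therefore those of the edgeR model. The smallest adjusted p was 0.0677 at 1 week and 0.247 at 2 weeks, and at 4 weeks 5 genes, all higher, had an adjusted p under 0.05, where 3.07% of all genes were higher and 0.928% lower. At 1 week 0 members had an adjusted p under 0.05 (0.0389% of all genes were higher and 0.0611% lower), and at 2 weeks 0 members and 0 genes did. The +MSC and +PBS libraries did not overlap for 11 higher and 6 lower members at 1 week (15.3% and 11.6% of all), 14 and 14 at 2 weeks (18.6% and 18.4% of all), and 6 and 1 at 4 weeks (6.08% and 4.47% of all). At 4 weeks edgeR called 3 genes higher without +PBS-4w replicate 1 and 1 without +PBS-1w replicate 3 or +MSC-4w replicate 3.

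At 1 week the higher genes with the smallest p were Epha5, Ephb6, Ntn4 and Unc5b. Epha5 stood at 29.7, 28.4 and 28.6 CPM in +MSC-1w and 17.3, 19.4 and 11.1 CPM in +PBS-1w. The groups were separate but the adjusted p was 0.0677 (log2 fold change 0.86 ± 0.20, SE). Ephb6 was at 53, 41.9 and 38 CPM against 32.6, 28 and 23 CPM, also without overlap (log2 fold change 0.67 ± 0.16 (SE), adjusted p = 0.0733). Ntn4 was at 12.5, 15.2 and 8.39 CPM against 8.74, 6.49 and 7.09 CPM, with overlap (log2 fold change 0.69 ± 0.21 (SE), adjusted p = 0.117). Unc5b was at 119.8, 138 and 141 CPM, above all 3 +PBS-1w libraries (log2 fold change 0.55 ± 0.19 (SE), adjusted p = 0.154). The lower genes with the smallest p were 3 plexins and Epha8. Plxna1 was at 118, 133 and 123 CPM in +MSC-1w against 195, 142 and 292 CPM in +PBS-1w, with all +MSC libraries lower (log2 fold change -0.75 ± 0.25 (SE), adjusted p = 0.143). Plxnd1 was at 62.3, 79.9 and 63.7 CPM in +MSC-1w. Plxnb2 was at 279, 358 and 317 CPM, and both were below their +PBS-1w values given above (adjusted p = 0.173 and 0.183). Epha8 was at 4.54, 4.19 and 4.53 CPM against 7.08, 7.42 and 7.85 CPM (log2 fold change -0.75 ± 0.33 (SE), adjusted p = 0.24). None of these 8 differences passed the adjusted test.

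At 2 weeks the 4 higher genes with the smallest p were Slit1, Sema4g, Sema6b and Ephb6. Slit1 stood at 35.6, 31.4 and 36.1 CPM in +MSC-2w against 11.7 and 18.8 CPM in the 2 +PBS-2w libraries. The groups did not overlap (log2 fold change 1.18 ± 0.37 (SE), adjusted p = 0.247). Sema4g was at 28.5, 23.3 and 23.3 CPM, Sema6b at 62.1, 45.3 and 58.5 CPM and Ephb6 at 62.7, 47 and 47.4 CPM, against 40.2 and 39 CPM for Ephb6 in +PBS-2w, and each was above both +PBS-2w libraries. The 4 lower genes were Efnb1, Ephb4, Efna4 and Plxnd1. Efnb1 was at 19.1, 6.81 and 6.47 CPM in +MSC-2w against 43.6 and 35.6 CPM in +PBS-2w. All 3 were below both +PBS-2w values (log2 fold change -1.87 ± 0.67 (SE), adjusted p = 0.297). Ephb4 was at 12, 9.28 and 10.02 CPM, Efna4 at 1.42, 1.64 and 1.39 CPM and Plxnd1 at 47.5, 51.9 and 51.3 CPM, all below +PBS-2w. The fibroblast sum of +MSC-2w, 602.5 to 943.7 CPM, was the lowest of the groups after injury, and its part was not tested.

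At 4 weeks the 4 higher genes with the smallest p were Slit1, Efna5, Epha10 and Unc5d. Slit1 stood at 40.2, 32.4, 16 and 28.2 CPM in +MSC-4w against 15.2, 8.86, 13.4 and 13.9 CPM in +PBS-4w. The groups were separate (log2 fold change 1.18 ± 0.28 (SE), adjusted p = 0.0206). Efna5 was at 2.35, 0.984, 1.29 and 0.774 CPM against 0.484, 0.459, 0.447 and 0.688 CPM, and its groups were separate too (log2 fold change 1.37 ± 0.36 (SE), adjusted p = 0.0332). The raw counts of Efna5 were only 59, 45, 36 and 18 in +MSC-4w and 13, 13, 10 and 15 in +PBS-4w. Unc5d was at 5.65, 3.78, 5.29 and 4.52 CPM against 0.186, 2.36, 2.01 and 2.29 CPM. It showed no overlap (log2 fold change 1.49 ± 0.41 (SE), adjusted p = 0.0424), with a log2 fold change of 1.03 to 1.70 over the alternatives. The 0.186 CPM of Unc5d in +PBS-4w replicate 1 rested on 5 counts. Epha10 was at 24, 19.1, 15.3 and 22.5 CPM against 15.7, 7.76, 8.28 and 8.86 CPM, and the 15.7 CPM of +PBS-4w replicate 1 lay within the +MSC-4w range (log2 fold change 0.99 ± 0.27 (SE), adjusted p = 0.0402). Without +MSC-4w replicate 1 the adjusted p was 0.0985 for Slit1, 0.168 for Efna5, 0.129 for Unc5d and 0.14 for Epha10, and without +PBS-4w replicate 2 it was 0.0785, 0.0929, 0.0667 and 0.119. Leaving out 1 library put the adjusted p at 0.05 or above for 2 of the 26 libraries for Slit1, 3 for Efna5, 15 for Unc5d and 13 for Epha10. The fifth gene under 0.05, named after its values were seen, was Epha5, at 40.7, 30.1, 30.2 and 30.1 CPM against 17.1, 22.1, 22.1 and 24.3 CPM without overlap (log2 fold change 0.61 ± 0.17 (SE), adjusted p = 0.0485). The lower genes were Sema6c, at 19.5, 18.4, 16.4 and 18.2 CPM against 24.1, 27.5, 20.9 and 22.5 CPM (log2 fold change -0.39 ± 0.14 (SE), adjusted p = 0.111), Efnb1, at 11.9, 44.6, 32 and 34.8 CPM (log2 fold change -1.32 ± 0.52 (SE), adjusted p = 0.138), Ephb4, at 12.8, 23.1, 17.1 and 16.8 CPM (log2 fold change -0.61 ± 0.24 (SE), adjusted p = 0.138), and Sema4c, at 38.5, 56.6, 56.5 and 63.2 CPM against 57.6, 82.4, 61.2 and 73.6 CPM (log2 fold change -0.36 ± 0.15 (SE), adjusted p = 0.15). Of these only Sema6c was without overlap.

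The mean of the 3 weekly differences used all +MSC and +PBS libraries at once. Over it, 1 guidance gene was higher (1.61% of all tested genes were) and 1 was lower (0.956% of all), and at an adjusted p under 0.05 with no threshold on the fold there were 12 higher (12.3% of all) and 8 lower (10.9% of all). Leaving out single libraries gave 0 to 3 higher and 0 to 1 lower genes, 1 or both counts changing without any library but Intact replicate 1, sub-SCI replicate 3 and +PBS-1w replicate 2. Unc5d was the higher one (log2 fold change 1.08 ± 0.27 (SE), adjusted p = 0.00774), and the weekly log2 fold changes behind it were 0.92 ± 0.46, 0.84 ± 0.52 and 1.49 ± 0.41 (SE). Both thresholds were missed without +PBS-2w replicate 1, where its log2 fold change was 0.93 and its adjusted p 0.0623. Leaving out any of 15 of the 26 libraries ended the Unc5d call. Among them was +PBS-1w replicate 2, without which Unc5d had an adjusted p of 0.0125. Unc5a passed in its place there (log2 fold change 1.0047, adjusted p = 0.00528), so the count of 1 higher gene hides a change of gene. Efnb1 was the lower one (log2 fold change -1.34 ± 0.35 (SE), adjusted p = 0.00901), with 36.6, 39.7 and 47.1 CPM in +MSC-1w and weekly log2 fold changes of -0.84 ± 0.60, -1.87 ± 0.67 and -1.32 ± 0.52 (SE). Over the alternatives its log2 fold change was -1.61 to -1.04 and its adjusted p 0.000781 to 0.0377, the last without +PBS-2w replicate 1, and any of 19 of the 26 libraries, left out alone, ended the call. The other 11 higher genes at the second threshold were Slit1 (0.98), Efna5 (0.96), Unc5a (0.95), Efna3 (0.88), Epha5 (0.61), Sema6b (0.51), Sema4f (0.44), Ephb6 (0.43), Epha4 (0.35), Sema4g (0.31) and Robo2 (0.27) by log2 fold change. The smallest adjusted p of all 68 was that of Epha5 (log2 fold change 0.61 ± 0.12 (SE), adjusted p = 0.00141). The other 7 lower genes were Efna4 (-0.71), Plxnd1 (-0.68), Epha2 (-0.62), Ephb4 (-0.61), Sema3c (-0.57), Plxnb2 (-0.44) and Plxna1 (-0.43). In the same contrast 3 of 10 neuron markers were higher (median log2 fold change 1.00, 10 of 10 positive), and none of the 8 fibroblast markers passed both thresholds (median -1.23, 8 of 8 negative). Astrocyte markers were positive for 7 of 8 (median 0.25) and oligodendrocyte markers for 7 of 8 (median 0.30), none a DEG. Microglia and macrophage markers were negative for 10 of 10 (median -0.31) and Schwann cell markers for 7 of 7 (median -0.38), none a DEG. Of the 6 endothelial markers 1 was lower (median -0.34, 5 of 6 negative). The part of all these cells in the gene results was not tested.

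By library, Unc5a, one of the 4 higher genes with the smallest p in the mean, stood at 15.7, 13.8 and 11.6 CPM in +MSC-1w, 21.4, 14.3 and 16.8 CPM in +MSC-2w and 20.5, 13, 11.5 and 14.4 CPM in +MSC-4w. The +MSC and +PBS libraries were separate at 1 and 2 weeks and overlapped at 4 weeks, with a mean log2 fold change of 0.95 ± 0.22 (SE) and an adjusted p of 0.00498. Plxnb2, on the lower side, was at 223, 313 and 350.1 CPM in +MSC-2w and 235, 307, 316 and 297 CPM in +MSC-4w (log2 fold change -0.44 ± 0.12 (SE), adjusted p = 0.0133). A difference of the +MSC effect between the weeks was found for 0 of the 68 genes and 0 of all 17990 by edgeR at an adjusted p under 0.05, and for 0 members by DESeq2. Sema6c alone had an unadjusted p under 0.05 there (adjusted p = 1).

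Since sub-SCI against Intact and the mean of +MSC against +PBS share no library, the direction of the same genes can be read in both. All 11 genes that were higher in sub-SCI had a negative mean log2 fold change with +MSC (100%, against 94.2% of the 2981 such genes among all tested), and 8 of the 11 had an adjusted p under 0.05 (72.7%, against 42.2%). Of the 23 lower genes, 20 had a positive one (87%, against 95.5% of 3151), 12 of them with an adjusted p under 0.05 (52.2%, against 57.4%). The 3 exceptions were Efnb3 (-0.39), Epha8 (-0.29) and Robo1 (-0.12), none of which passed the test in the mean. Efnb3 and Epha8 are also among the 7 genes that rose from sub-SCI to +PBS-4w. The shares of the 68 genes lie near those of all tested genes except for the share of the higher genes that passed the second threshold.

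**Figure D5:**
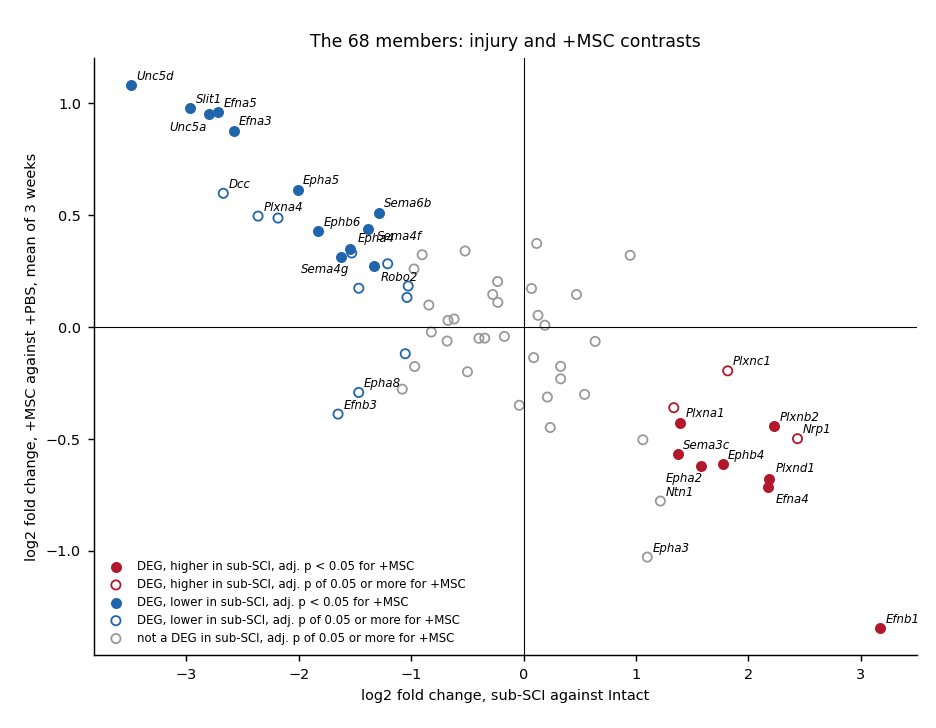
Log2 fold change of the 68 guidance genes between sub-SCI and Intact (horizontal axis) and in the mean of +MSC against +PBS over 3 weeks (vertical axis), 1 point per gene. The 11 genes that were higher in sub-SCI all lie below 0 on the vertical axis, and 20 of the 23 lower ones lie above it.

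The molecules that act downstream of these receptors or beside them were read from a list of 61 effectors and other guidance genes, of which 60 were in the table and tested. In sub-SCI 9 were higher and 22 were lower than in Intact (16.6% and 17.5% of all genes), with a median log2 fold change of -0.43. Fes, a kinase that plexins engage, rose (log2 fold change 3.07 ± 0.22 (SE), adjusted p = 2.65e-10), as did Mical1, an actin oxidase of semaphorin signalling (log2 fold change 2.26 ± 0.23 (SE), adjusted p = 3.67e-08), and Rhoa, the GTPase of growth cone collapse (log2 fold change 1.05 ± 0.09 (SE), adjusted p = 2.22e-09). Lower were the kinases Pak3 (log2 fold change -3.63 ± 0.50 (SE), adjusted p = 2.01e-06) and Limk1 (-1.90), the netrin co-receptor Dscam (-2.48) and Lingo1 of the Nogo receptor complex (-2.24). Against Intact, 5 were higher and 16 lower in +PBS-1w (13.5% and 12.5% of all genes), 4 and 8 in +PBS-2w (8.84% and 5.66% of all), and 4 and 14 in +PBS-4w (13.3% and 10.7% of all). From sub-SCI to +PBS-4w, Ngef, Lingo1, Rtn4r and Ntng1 rose and Fes fell. These were 6.67% and 1.67% of the 60, where 4.28% of all genes rose and 3.09% fell. Rtn4r, the Nogo receptor, had the largest change (log2 fold change 2.15 ± 0.41 (SE), adjusted p = 0.000738). None passed in any single week of +MSC against +PBS in edgeR, where 18, 9 and 22 of the 60 had an unadjusted p under 0.05 (17.9%, 12.3% and 22.5% of all genes), and DESeq2 with all libraries called 1 higher at 4 weeks. In the mean only Pak3 was a DEG, and it rose (log2 fold change 1.23 ± 0.27 (SE), adjusted p = 0.00382). Of all genes 1.61% were higher and 0.956% lower there. At an adjusted p under 0.05 alone, 20 of the 60 were higher and 5 lower in the mean (12.3% and 10.9% of all). As a DEG, no effector rose in the mean without +PBS-2w replicate 1. Without that library 0 effectors were lower in +PBS-2w than in Intact. Without sub-SCI replicate 3 only 1 was higher in +PBS-4w than in sub-SCI. Without +PBS-4w replicate 1 there were 7 higher against Intact and 3 higher in +MSC-4w. Shares of all genes are not given for fits with a library left out.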

How the data were processed

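Poly(A) RNA of rat spinal cord was sequenced in 26 libraries, made with a kit that does not mark strand, so reads of overlapping genes on opposite strands cannot be told apart. The authors trimmed reads with Trim Galore 0.5.0, used HISAT2 2.1.0 to discard reads with a match in human GRCh38 and to place what remained on rat Rnor6, selected properly paired reads by SAMtools 1.9, and obtained counts per gene from featureCounts 1.6.4. Rat reads that also map to human sequence were thereby removed in every group. The deposited values are raw counts for 32883 genes, and the annotation release is not given in the sources used here.

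Counts were tested with edgeR 4.0.16 (R 4.3.3), with TMM scaling, filterByExpr and quasi-likelihood tests in 1 model of the 8 groups. All 68 members were among the 17990 genes tested, and p-values were adjusted over all of them (Benjamini-Hochberg). The DEG thresholds (log2 fold change over 1 in size, adjusted p under 0.01) are those of the study, and an adjusted p under 0.05 served as a second rule. The mean of the 3 weekly +MSC effects and their difference between weeks (F test) came from the same model. The SE of a log2 fold change was that fold change without its sign, divided by the square root of the F value of its test. CPM used TMM library sizes, and RPKM also the gene length in the table. The script was tested on simulated data. Alternatives were DESeq2 1.42.0, the 2 groups alone, median-of-ratios factors, no filter, a replicate block, replicate 1 libraries left out, and each library left out in turn, the last added for the effectors after seeing the data.

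Every member may be named in its family. Values per library are given for up to 5 DEGs in each direction, by adjusted p, of each injury comparison, the 4 higher and 4 lower members with the smallest p of each +MSC comparison, and the highest and lowest fold change of each family in sub-SCI. Values per library of other members, and the effectors named, were picked after their values were seen. The members and lists were chosen with earlier results of these data known. Whether libraries of a group came from separate rats rests on the methods' words, and otherwise p-values measure only the spread between libraries. The closest libraries within any group were +MSC-2w replicates 2 and 3. The chi-square per gene between their counts was 5.484, against 12.8 to 242 for the other pairs within a group. Whether these replicates came from the same rat was not tested, which bears on the 2-week and mean +MSC comparisons.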

Additional observations from a re-analysis of the deposited data

Results flagged for a closer look

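Of 204 groups of 4 libraries tested for a single distant library (the 68 members in Intact, +PBS-4w and +MSC-4w), 14 had one, where chance alone gives about 1 in 20, or 10.2. The library +PBS-4w replicate 1 was the distant one in 9 of the 14. It was high for Efna3, at 7.49 CPM against 1.70 to 2.19 CPM in the other 3 libraries, for Epha10, at 15.7 CPM against 7.76 to 8.86 CPM, for Sema4a, at 60.2 CPM against 44.6 to 47.2 CPM, and for Sema4f, at 30.3 CPM against 18.4 to 19.9 CPM. It was low for Sema3a, at 4.58 CPM against 25.3 to 26.8 CPM, and for Sema3d, at 9.28 CPM against 52.4 to 58.2 CPM. It was low too for Plxnb1, at 74.5 CPM against 131.9 to 136.9 CPM, for Unc5c, at 18.1 CPM against 23.7 to 24.1 CPM, and for Unc5d, at 0.186 CPM against 2.01 to 2.36 CPM.

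In +PBS-4w replicate 2, Sema4g stood at 25.4 CPM against 18.2 to 18.9 CPM, and in +PBS-4w replicate 4 Efna5 stood at 0.688 CPM against 0.447 to 0.484 CPM. In +MSC-4w replicate 1, Epha5 stood at 40.7 CPM against 30.1 to 30.2 CPM, and Plxnd1 at 28.4 CPM against 66.7 to 71.1 CPM. In Intact replicate 1, Slit1 stood at 70.7 CPM against 49.2 to 52.5 CPM.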

How the results depend on the processing

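Counts are of members higher/lower unless effectors are named. With DESeq2 on all libraries, +PBS-4w against sub-SCI had 1 lower and +MSC-4w 4 higher members and 1 higher effector. With DESeq2 on the 2 groups, +MSC-2w had 1 higher and 2 lower members, +MSC-4w 1 higher, and +PBS-4w against sub-SCI 2 higher effectors. With edgeR on the 2 groups, the last comparison had 1 higher member and 1 higher effector. Without a filter, +PBS-2w had 5 lower effectors. With the replicate block, +PBS-2w had 8 higher members, +PBS-4w against sub-SCI 1 lower and the mean of +MSC 3 higher. Without the replicate 1 libraries, +PBS-2w had 2 higher and 1 lower members and 2 and 2 effectors, +PBS-4w against sub-SCI 13 higher members, +MSC-4w 2 higher effectors, and the mean 0 higher members and 0 effectors. At an adjusted p under 0.05 with no fold threshold, sub-SCI had 16 higher effectors of the 60 (30.5% of all genes). Under the same rule +PBS-1w had 23 lower members and 13 higher and 27 lower effectors (26.7% and 26.4% of all genes). In +PBS-2w there were 19 lower members and 20 lower effectors (17% of all). In +PBS-4w there were 26 lower members and 10 higher and 27 lower effectors (28.6% and 23.9% of all). +PBS-4w against sub-SCI then had 14 and 5 members and 12 and 5 effectors (13.4% and 11.6% of all genes). In +MSC-4w there were 5 higher members and 3 and 3 effectors (3.07% and 0.928% of all). The mean had 12 and 8 members and 20 and 5 effectors (12.3% and 10.9% of all).

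Leaving out single libraries gave these ranges. For sub-SCI they were 9 to 13 higher and 20 to 24 lower members, for +PBS-1w 7 to 13 and 13 to 16, for +PBS-2w 2 to 6 and 0 to 10, for +PBS-4w 10 to 14 and 9 to 12, for +PBS-4w against sub-SCI 2 to 12 and 0 to 1, for +MSC-4w 0 to 3 and 0, and for the mean 0 to 3 and 0 to 1. +MSC-1w, +MSC-2w and the difference between weeks stayed at 0. For the effectors they were 6 to 9 and 20 to 22, 4 to 7 and 14 to 18, 3 to 4 and 0 to 10, 4 to 7 and 11 to 16, and 1 to 5 and 1 in the first 5 of these comparisons, 0 to 3 higher in +MSC-4w and 0 to 1 higher in the mean. For +PBS-2w the higher count was 2 without +PBS-2w replicate 1 and 3 without +PBS-2w replicate 2 or Intact replicate 1, 2 or 4. The cause of these shifts was not tested, other than that fewer libraries enter.

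The 143 named or called log2 fold changes include many that were not DEGs. Other alternatives left the DEG call, or its absence, unchanged in 915 values, ended a call in 51 and made one in 15. Leaving out a library left it unchanged in 3501, ended a call in 196 and made one in 19. None changed sign while called. Median-of-ratios factors shifted no comparison by more than 0.038 (log2, median of all genes). Same-numbered libraries correlated in their deviations from the group mean at -0.164 to 0.247 over 24 pairs, 12 over 0.1. Of the 8 pairs of replicate 1, 6 were over 0.1. Libraries with different numbers were not compared, so whether the replicate numbers pair the libraries cannot be told. Fits on 2 groups could not be made for the mean or the difference between weeks. Depth limited Robo4, with a median of 4 counts, and counting intervals cover sequencing error only.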
